A study of Mus musculus with 6 samples.

Results

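Proteins that enter the endoplasmic reticulum (ER) are folded, oxidised, inspected and, where folding fails, discarded by the products of the 36 genes described here. They were chosen by name, not by their values, as ER chaperones, disulfide isomerases, genes of ER-associated degradation (ERAD) and sensors of the unfolded protein response, leaving out the ATF4-CHOP genes. All 36 were present among the 54532 genes of the deposited table. The KO group was primary macrophages from mice labelled METRNL KO (*Metrnl*-/-; *Metrnl* encodes the secreted protein meteorin-like) and the WT group was primary macrophages from METRNL+/+ mice. Both were challenged in culture for 6 h with the yeast *Candida albicans*. Each genotype has 3 libraries, and no unchallenged library was analysed here. The comparison therefore asks how these genes differ by genotype in challenged cells, not how they respond to the fungus. The labels name no deleted exon, Cre driver, strain, age or tissue of origin, and are silent on whether the 3 replicates came from different mice or dishes. The p-values thus reflect how far these 6 libraries scatter, and that scatter could be technical.

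The ER lumen folds secreted and membrane proteins with the Hsp70 chaperone BiP and its J-domain and nucleotide exchange partners, with the lectin chaperones calnexin and calreticulin, and with disulfide isomerases. Chains that stay misfolded are pulled back to the cytosol through the HRD1-SEL1L ubiquitin ligase and degraded, which is ERAD. When unfolded chains build up, the sensors IRE1alpha, ATF6 and PERK start the unfolded protein response. IRE1alpha splices *Xbp1* mRNA, and spliced XBP1 and cleaved ATF6 raise chaperone and ERAD genes. Macrophages that make cytokines and lysosomal enzymes pass much protein through this compartment. Values per gene count all its transcripts, so splicing of *Xbp1* and cleavage of ATF6 cannot be read from them.

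Levels are in FPKM, that is, fragments scaled to the length of the gene and the size of the library. Reads in genes, recovered as whole numbers, ranged from 14772746 to 15724897 in KO and from 11026529 to 14309247 in WT. Replicate 1 of each genotype stood apart from the other libraries of its group. A chi-square of reads per degree of freedom, for which sampling noise alone gives 1, was 59.4 for both KO pairs with replicate 1 against 2.30 for KO replicates 2 and 3, and 42.2 and 39.6 for the WT pairs with replicate 1 against 7.10 for WT replicates 2 and 3. *Metrnl* RNA was present in the KO libraries at 51.2, 63.6 and 62.8 FPKM, against 93.5, 63.2 and 69.8 FPKM in WT (limma adjusted p = 0.181), so it does not check the labels and KO means the libraries labelled so. Macrophage markers summed to 8874 to 9595 FPKM in KO and 5049 to 5873 FPKM in WT, of which the lysozyme gene *Lyz2* alone made 4431 ± 203 FPKM in KO and 2204 ± 397 FPKM in WT (SD, n = 3 each). Of the 13, 6 were called higher, 2 lower and 5 not called. Over all genes tested 15.7% were called higher and 12.4% lower. The falls were the scavenger receptor gene *Marco*, at 20.8 ± 4.12 FPKM in KO and 78.8 ± 5.52 FPKM in WT, and the Fc receptor gene *Fcgr1*, at 1.24 ± 0.416 FPKM in KO and 4.75 ± 1.06 FPKM in WT (limma adjusted p = 4.70e-04 and 0.00419). The 10 retinal markers, looked at because the extraction text of the labels speaks of retinas, summed to 0.932 to 1.40 FPKM in KO and 0.771 to 0.838 FPKM in WT. B cell markers summed to 30.7 to 39.1 FPKM in KO and 576 to 741 FPKM in WT, and 13 of 13 tested were called lower in KO. In bulk RNA, fewer cells of a type and less RNA per cell cannot be told apart.

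Of the 36 genes, 35 had a mean of at least 0.5 FPKM over the 6 libraries and were tested with the whole table of 11689 genes on the log2(FPKM + 1) scale. A gene is called here when its limma p, adjusted over all 11689 genes by Benjamini-Hochberg, is below 0.05, and all log2 fold changes are KO minus WT. In KO 5 of the 35 rose, namely *Herpud1*, *Wfs1*, *Ern1*, *Sel1l* and *Derl1*, and 7 fell, namely *Creld2*, *Dnajb9*, *Syvn1*, *Manf*, *Pdia4*, *Ero1lb* and *Erp44*. The 12 calls were 34.3% of the genes tested, against 28.0% of all genes tested. Rises were 14.3% against 15.7% over all genes, and falls 20% against 12.4%. The share of rises is close to that of the whole table, and nothing particular to these genes is read from either share. The median log2 fold change was -0.04 over the 35 and 0.03 over all genes tested. KO and WT values did not overlap for 21 of the 35 (60.0%), against 45.6% of all genes: KO lay wholly above WT for 10, against 25.7% of all genes, and wholly below for 11, against 19.9%. Rescaling every library to the same summed total (TPM) gave 2 genes called higher, *Herpud1* and *Ern1*, and 4 called lower. Of these 4, *Dnajb9*, *Syvn1* and *Manf* were among the 7 falls, and *Hspa5* was called in TPM but not with the deposited scaling. Over all genes that rescaling gave 542 higher and 1161 lower, against 1833 and 1445 with the deposited scaling. The count of 7 falls dropped to 3 without KO replicate 2, KO replicate 3 or WT replicate 3 and to 4 without WT replicate 1. Without both replicate 1 libraries the 5 rises became 8 and the 7 falls became 9. Over all 11689 genes that fit called 2252 higher and 1908 lower, also more than with all libraries. Quantile normalization gave 6 rises and 13 falls, against 1693 higher and 1377 lower over all 11689 genes. Among those 13 were *Hspa5*, *Hsp90b1*, *Xbp1*, *Edem2*, *Pdia6* and *Sec61b*, none of them called with the deposited scaling.

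**Figure D1:**
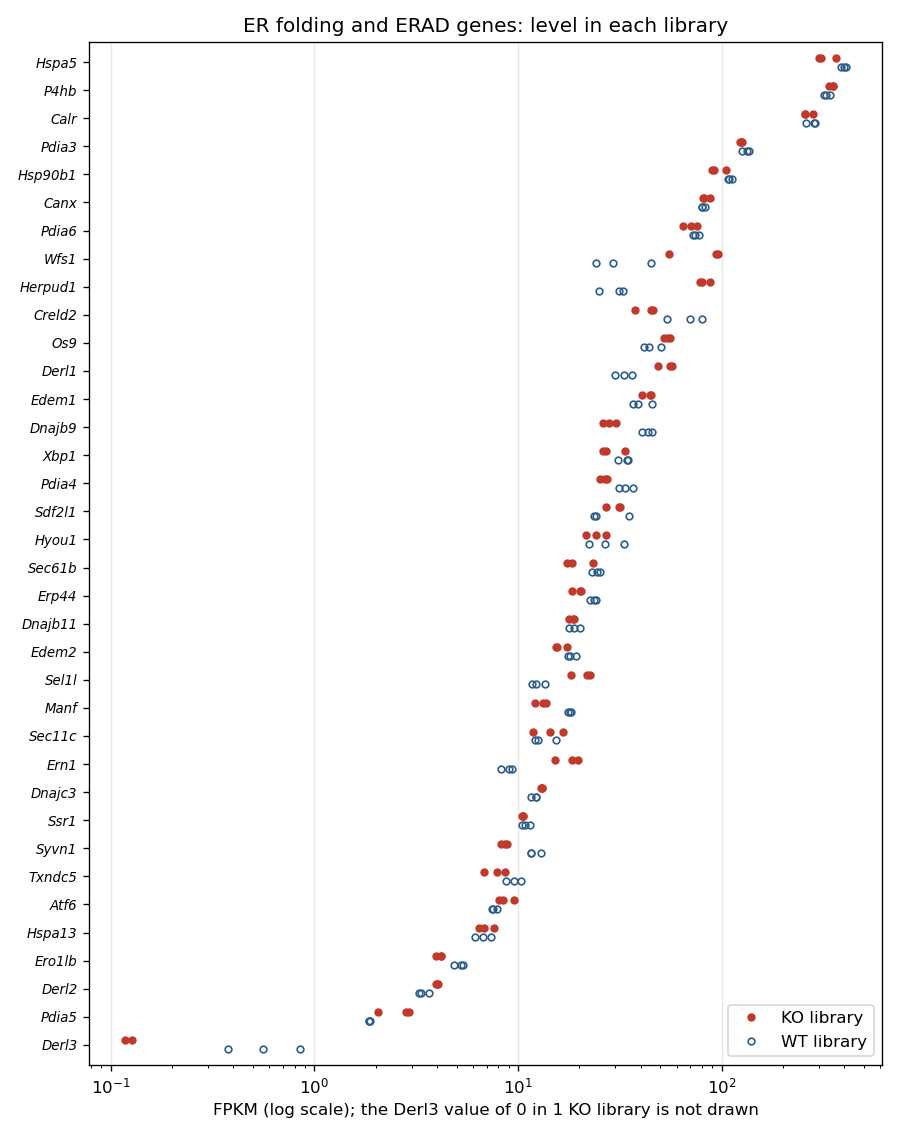
Level of each of the 36 genes in FPKM (log axis) in the 3 KO libraries (filled red) and the 3 WT libraries (open blue), ordered by the mean over all 6. Levels run from over 300 FPKM for *Hspa5* to under 1 FPKM for *Derl3*, and *Herpud1*, *Wfs1*, *Derl1*, *Sel1l* and *Ern1* show KO points to the right of WT.

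**Figure D2:**
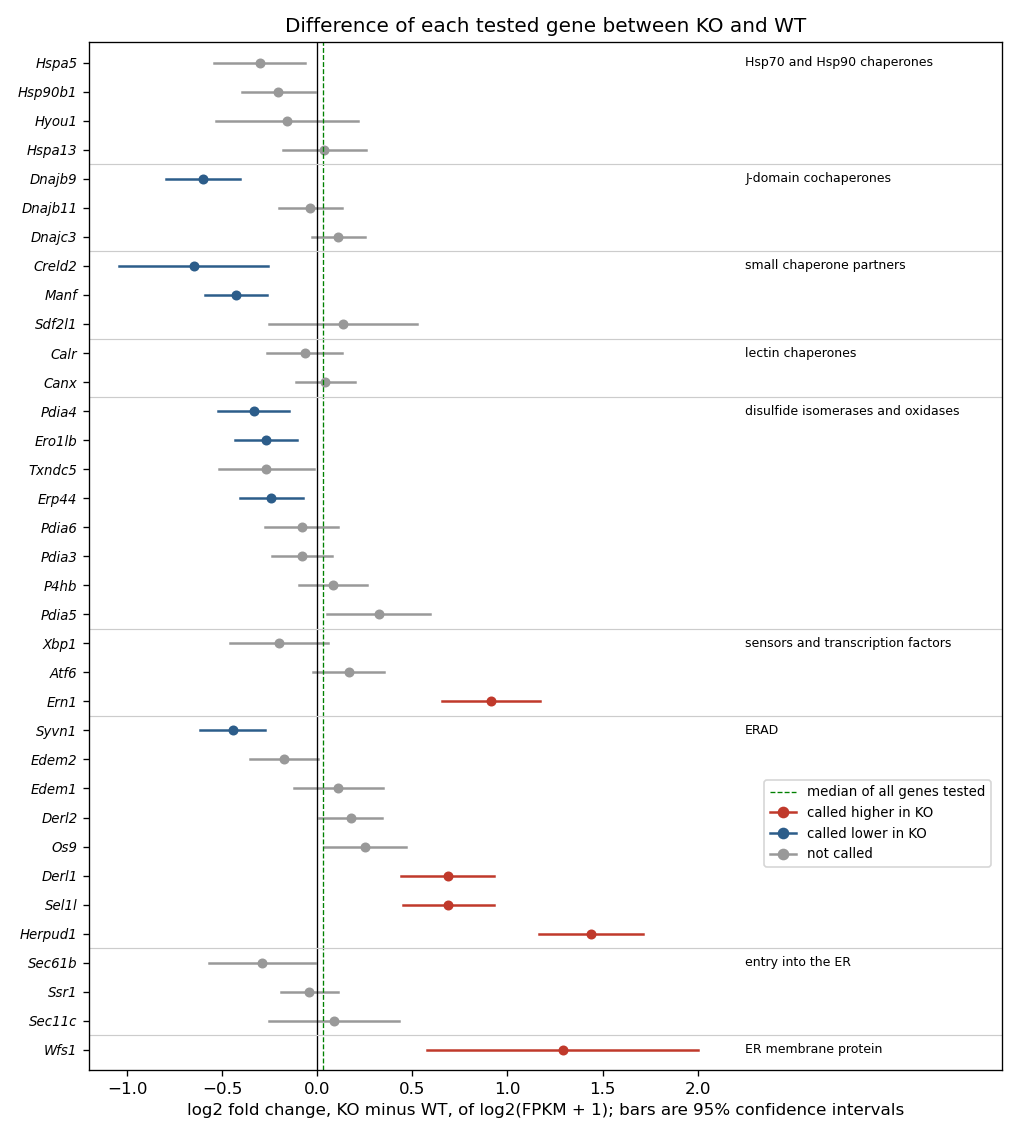
Log2 fold change (KO minus WT) with its 95% confidence interval for the 35 genes tested, grouped by role, with called genes in colour and the median of all genes tested as a dashed line. Called rises lie among ERAD genes, the sensor *Ern1* and *Wfs1*, and called falls among cochaperones, chaperone partners, thiol enzymes and *Syvn1*.

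*Hspa5*, which encodes BiP, had the highest level per kilobase over the 6 libraries, with 363, 300.3 and 306 FPKM in KO replicates 1 to 3, against 385, 399 and 407 FPKM in WT replicates 1 to 3. *P4hb* (protein disulfide isomerase) and *Calr* (calreticulin) came next, and *P4hb* exceeded *Hspa5* in KO replicates 2 and 3. *P4hb* had 336, 353 and 351 FPKM in KO and 340.2, 317 and 326 FPKM in WT with overlap (log2 fold change 0.08, 95% confidence interval -0.10 to 0.26, limma adjusted p = 0.461). At the other end *Derl3* stood at 0.118, 0.127 and 0 FPKM in KO and 0.376, 0.852 and 0.561 FPKM in WT, resting on 7 reads over the KO libraries and 46 over the WT libraries. *Derl3*, the third derlin gene, fell below the filter, and without a filter it was not called (limma adjusted p = 0.0551). Summed over all 36 genes the level was 2036, 1988 and 1999.9 FPKM in KO replicates 1 to 3, against 2083, 1945 and 2030.2 FPKM in WT replicates 1 to 3. The sums of the groups overlap, although single genes moved in both directions.

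ATF6 and XBP1 are known to act through the ER stress response element (ERSE), and its letters are printed here because several of the genes share them. RefSeq promoters (250 bases before to 50 bases after a transcript start, build GRCm38.p6) were found for 29 of the 36 genes. The ERSE letters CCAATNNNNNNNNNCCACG, searched on both strands, stood in the promoter of 9 of the 29 genes (31.0%), against 37 of all 27025 genes with a promoter (0.137%); by promoter the share was 39 of 32851 (0.119%). The second form, ERSE-II, with the letters ATTGGNCCACG, stood in 2 of the 29 (*Herpud1* and *Dnajb11*), against 12 of all 27025 genes (0.0444%). No gene of the 29 held an exact match to both forms. Only exact letters were searched, so an element with a changed letter is not counted. The core TGACGTGG of the unfolded protein response element stood in 1 of the 29, *Txndc5*, against 0.714% of all genes, and the letters TGACGTCA of the cAMP response element in 0 of the 29, against 2.03%. A match is a run of letters, not evidence of binding. The counts over all genes include the genes described here. The letters were picked for their known part in this response, so these shares were not tested as an enrichment. The elements follow, each read 5′ to 3′ in the direction of the element, with the fixed letters in capitals.
Hspa5: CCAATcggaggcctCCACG
Hsp90b1, far element: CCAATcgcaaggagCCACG
Hsp90b1, near element: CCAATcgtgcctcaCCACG
Dnajc3: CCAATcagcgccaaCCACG
Creld2: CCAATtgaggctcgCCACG
Calr: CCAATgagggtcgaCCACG
Canx: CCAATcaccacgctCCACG
Pdia6: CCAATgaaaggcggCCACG
Syvn1: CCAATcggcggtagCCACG
Derl3: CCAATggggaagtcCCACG
Herpud1, ERSE-II: ATTGGgCCACG
Dnajb11, ERSE-II: ATTGGcCCACG

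Elements stood in genes of every class of call. Of the 5 genes called higher 4 had a promoter and 1 held an element (*Herpud1*); of the 7 called lower 5 had a promoter and 2 held an element (*Creld2* and *Syvn1*); of the 23 not called 19 had a promoter and 7 held an element. The 150 bases before the start are printed on the gene's strand, with element letters in capitals. They are given for the 2 ligase genes that moved apart (*Syvn1* with an element, *Sel1l* with no exact match). They are also given for the genes with an element that rose (*Herpud1*) or fell (*Creld2*). *Herpud1* lies at chr8:94386279-94386428 on the plus strand, *Creld2* at chr15:88819496-88819645 on the plus strand, *Syvn1* at chr19:6046426-6046575 on the plus strand and *Sel1l* at chr12:91849158-91849307 on the minus strand (GRCm38.p6). The nearest base of the element lies 26 bases before the start in *Syvn1*, 42 in *Herpud1* and 108 in *Creld2*, where the element reads on the opposite strand.
Herpud1: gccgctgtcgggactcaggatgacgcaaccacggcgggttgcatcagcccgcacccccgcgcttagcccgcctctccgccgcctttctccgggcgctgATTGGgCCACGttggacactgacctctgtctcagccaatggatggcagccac
Creld2: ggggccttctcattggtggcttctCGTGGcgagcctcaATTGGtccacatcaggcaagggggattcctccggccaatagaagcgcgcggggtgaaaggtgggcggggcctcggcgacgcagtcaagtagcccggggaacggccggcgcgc
Syvn1: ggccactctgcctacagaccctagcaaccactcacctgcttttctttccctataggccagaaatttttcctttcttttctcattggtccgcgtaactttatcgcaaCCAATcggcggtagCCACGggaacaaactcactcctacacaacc
Sel1l: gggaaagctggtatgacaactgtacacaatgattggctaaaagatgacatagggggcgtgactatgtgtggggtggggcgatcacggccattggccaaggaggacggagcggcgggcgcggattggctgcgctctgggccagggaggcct

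**Figure D3:**
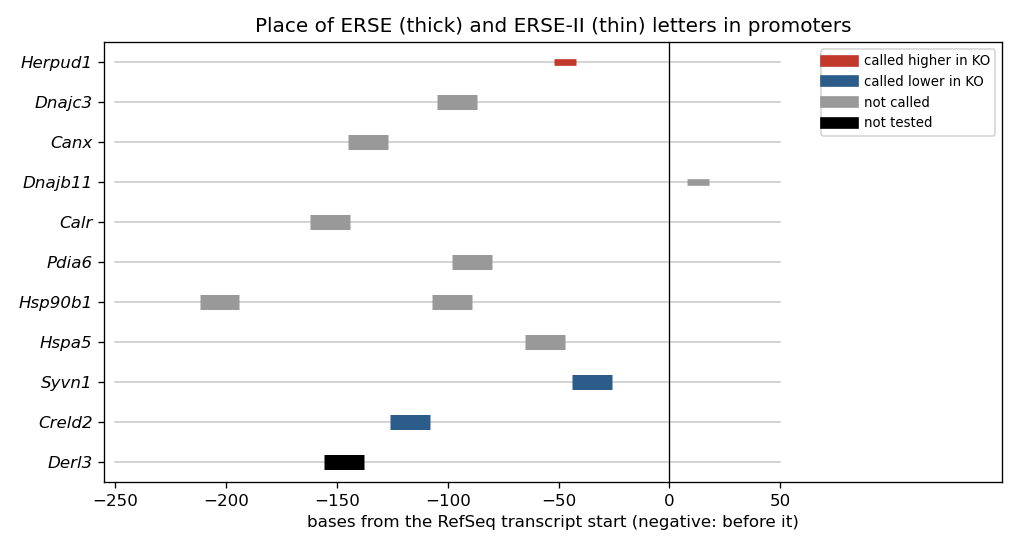
Place of the ERSE letters (thick bars) and ERSE-II letters (thin bars) in the promoters of the 11 genes that hold them, in bases from the RefSeq transcript start, coloured by the call. The nearest base of each element lies from 26 to 194 bases before the start, except for *Dnajb11*, whose element lies after it.

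Of 8 ERAD genes tested 3 rose and 1 fell, against 15.7% and 12.4% of all genes tested. *Herpud1* encodes HERP, a membrane protein with a ubiquitin-like domain that helps to organise the HRD1 complex (chromosome 8, 94386438 to 94395377, GRCm38). It had 87.2, 77.9 and 79.9 FPKM in KO replicates 1 to 3, against 25.0, 32.7 and 31.2 FPKM in WT replicates 1 to 3. Every KO library was more than 2-fold above every WT library, and the ratio of mean FPKM was 2.76 (81.7 ± 4.88 FPKM in KO and 29.6 ± 4.07 FPKM in WT, SD, n = 3 each). The difference was 1.44 ± 0.11 SE as log2 fold change, adjusted p = 5.70e-04 by limma. *Sel1l*, the adaptor that hands substrates to the ligase (chromosome 12, 91806043 to 91849157), had 18.2, 21.7 and 22.5 FPKM in KO replicates 1 to 3, against 13.5, 11.7 and 12.2 FPKM in WT replicates 1 to 3. Its groups did not overlap, and it rose 1.67-fold (0.69 ± 0.10 SE as log2 fold change, adjusted p = 0.00481 by limma). *Derl1*, a membrane protein of the channel through which chains leave the ER (chromosome 15, 57869502 to 57892448), had 48.5, 57.2 and 55.6 FPKM in KO replicates 1 to 3, against 36.4, 29.8 and 33.0 FPKM in WT replicates 1 to 3 and rose 1.63-fold (0.69 ± 0.10 SE as log2 fold change, adjusted p = 0.00541 by limma). In both genes KO replicate 1 was the lowest of the KO libraries and WT replicate 1 the highest of the WT libraries. In TPM neither call held, with log2 fold changes of 0.63 ± 0.19 (SE) for *Sel1l* and 0.61 ± 0.18 for *Derl1* (limma adjusted p = 0.063 and 0.0623). The differences were nearly as large in TPM, and their errors were larger.

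*Syvn1*, which encodes the ligase HRD1 itself, went the other way (chromosome 19, 6046576 to 6053712). It had 8.83, 8.67 and 8.21 FPKM in KO replicates 1 to 3, against 11.6, 12.9 and 11.6 FPKM in WT replicates 1 to 3. The KO values all lay below the WT values, and *Syvn1* was 1.40-fold lower (-0.44 ± 0.07 SE as log2 fold change, adjusted p = 0.00673 by limma). Its annotated exons share 91 bases with those of *Mrpl49* on the other strand, and whether the counting used strand is not stated in the available sources. The ratio of *Sel1l* to *Syvn1* FPKM was 2.06, 2.50 and 2.74 in KO replicates 1 to 3, against 1.16, 0.908 and 1.06 in WT replicates 1 to 3, so the adaptor stood at more than 2 times the ligase in each KO library and near parity in WT. This ratio is a description of the 2 genes and was not tested.

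The remaining ERAD genes were not called. *Os9*, a lectin that recognises trimmed glycans on ERAD substrates, had 54.2, 51.9 and 55.6 FPKM in KO and 50.5, 41.4 and 43.9 FPKM in WT without overlap (log2 fold change 0.25, 95% confidence interval 0.04 to 0.46, limma adjusted p = 0.0816). It was called as higher without WT replicate 1 (adjusted p = 0.0265) and without both replicate 1 libraries (0.0209). *Derl2* had 3.94, 4.03 and 4.0 FPKM in KO and 3.67, 3.32 and 3.28 FPKM in WT, also without overlap (log2 fold change 0.17, 95% confidence interval 0.01 to 0.34, limma adjusted p = 0.105), and its exons share 231 bases with *Mis12* on the other strand. *Edem1* and *Edem2*, which mark chains for ERAD by trimming mannose, differed in their pattern. *Edem1* had 40.6, 45.2 and 44.4 FPKM in KO and 45.4, 36.6 and 38.8 FPKM in WT with overlap (log2 fold change 0.11, 95% confidence interval -0.12 to 0.34, limma adjusted p = 0.448), and *Edem2* had 17.3, 15.4 and 15.5 FPKM in KO and 19.3, 17.9 and 17.6 FPKM in WT, all KO values below the WT values (log2 fold change -0.17, 95% confidence interval -0.35 to 0.00, limma adjusted p = 0.13). Without both replicate 1 libraries *Edem1* was called as higher (adjusted p = 0.0312). Summed over the 9 ERAD genes the level was 279, 282 and 286 FPKM in KO replicates 1 to 3, against 206, 187 and 192 FPKM in WT replicates 1 to 3, with every KO sum above every WT sum. Most of that gap came from *Herpud1* and *Derl1*, the genes with the largest differences in FPKM among the 9.

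Of the sensors and their transcription factors, *Ern1* rose. It encodes IRE1alpha, the sensor kinase and RNase (chromosome 11, 106394650 to 106487852), and had 15.1, 19.6 and 18.3 FPKM in KO replicates 1 to 3, against 9.35, 9.04 and 8.22 FPKM in WT replicates 1 to 3. The groups did not overlap, with KO replicate 1 the lowest of the KO libraries. The rise was 1.99-fold (0.91 ± 0.11 SE as log2 fold change, adjusted p = 0.00243 by limma), and it held in TPM (adjusted p = 0.0244). *Atf6*, the sensor that is cut to a transcription factor in the Golgi, had 8.03, 8.47 and 9.52 FPKM in KO and 7.84, 7.43 and 7.56 FPKM in WT, all KO values above the WT values (log2 fold change 0.17, 95% confidence interval -0.02 to 0.35, limma adjusted p = 0.161). *Xbp1*, the target of the RNase, had 33.4, 26.9 and 26.3 FPKM in KO replicates 1 to 3, against 30.9, 34.5 and 34.1 FPKM in WT replicates 1 to 3. KO replicate 1 lay among the WT libraries and the other 2 KO libraries below them, and *Xbp1* was not called (log2 fold change -0.20, 95% confidence interval -0.46 to 0.06, limma adjusted p = 0.209). *Xbp1* was called as lower without KO replicate 1 (adjusted p = 0.0376) and without both replicate 1 libraries (log2 fold change -0.36, adjusted p = 0.00928). The ratio of *Ern1* to *Atf6* FPKM was 1.88, 2.31 and 1.92 in KO replicates 1 to 3, against 1.19, 1.22 and 1.09 in WT replicates 1 to 3.

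*Wfs1*, which encodes wolframin, a membrane protein of the ER (chromosome 5, 36966104 to 36989205), had 55.0, 96.3 and 93.3 FPKM in KO replicates 1 to 3, against 45.2, 24.1 and 29.3 FPKM in WT replicates 1 to 3. It rose 2.48-fold (1.29 ± 0.30 SE as log2 fold change, adjusted p = 0.0222 by limma). The replicate 1 libraries lay close to each other, while KO replicates 2 and 3 were 3 to 4 times WT replicates 2 and 3. The call was lost without KO replicate 2 (adjusted p = 0.0772), KO replicate 3 (0.0763), WT replicate 2 (0.0703) or WT replicate 3 (0.075). It was also lost in TPM (limma adjusted p = 0.0611), with no filter (0.0551) and with the replicate block (0.101). Without both replicate 1 libraries the log2 fold change was 1.80 (adjusted p = 0.0012).

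**Figure D4:**
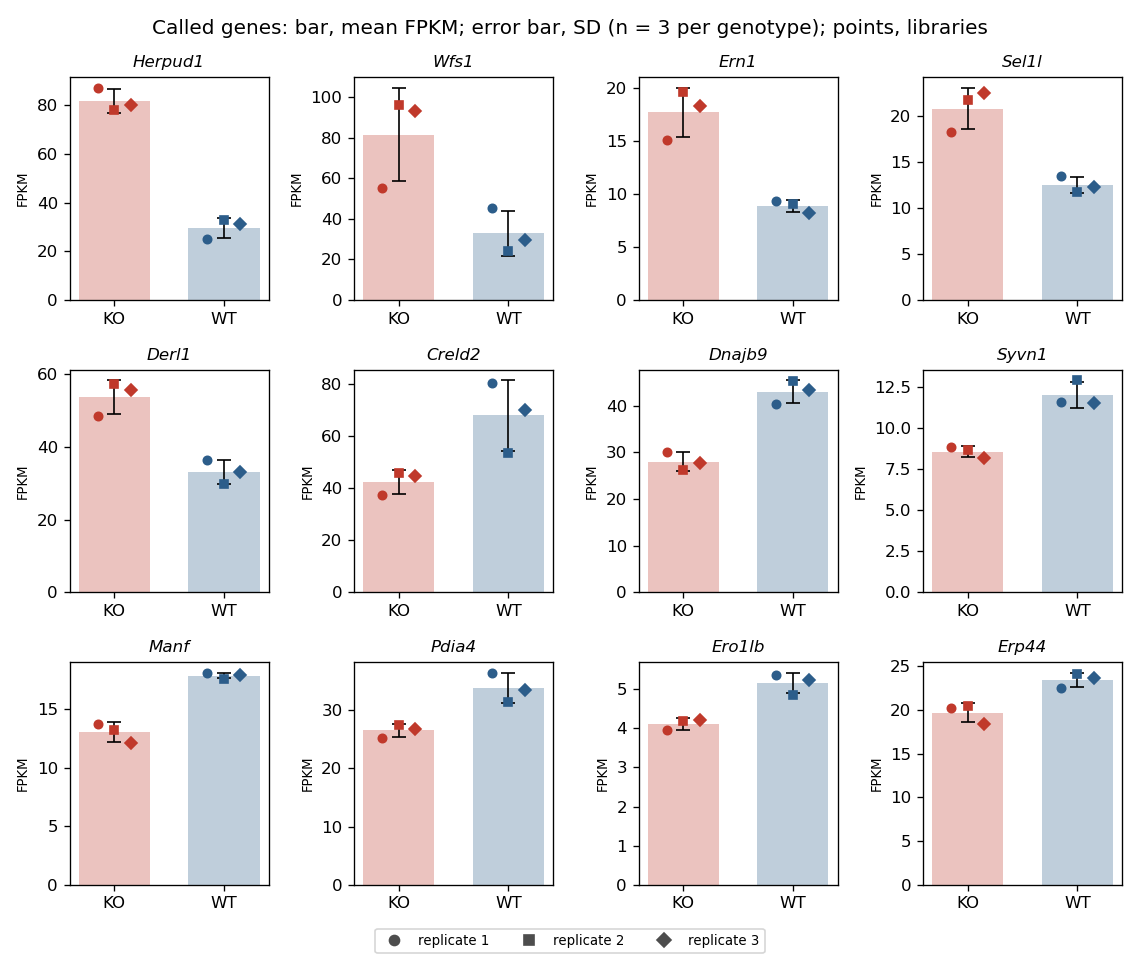
FPKM of the 12 called genes in each library (circle, square and diamond for replicates 1, 2 and 3), with bars for the mean and error bars for the SD of 3 KO (left, red) and 3 WT (right, blue) libraries. KO and WT points do not overlap in any of the 12, and in *Wfs1* the replicate 1 libraries, at 55.0 FPKM in KO and 45.2 FPKM in WT, lie nearest to each other.

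Chaperones and their partners fell or were not called. Among J-domain cochaperones *Dnajb9*, which encodes ERdj4, a partner of BiP known to hold IRE1alpha inactive (chromosome 12, 44205559 to 44210326), had 30.1, 26.1 and 27.8 FPKM in KO replicates 1 to 3, against 40.4, 45.3 and 43.3 FPKM in WT replicates 1 to 3. Its KO values all lay below its WT values, and it was 1.53-fold lower (-0.60 ± 0.08 SE as log2 fold change, adjusted p = 0.00377 by limma). *Dnajb11* (ERdj3), which presents clients to BiP, had 17.9, 18.6 and 18.8 FPKM in KO and 20.1, 17.8 and 18.9 FPKM in WT (log2 fold change -0.04, 95% confidence interval -0.20 to 0.13, limma adjusted p = 0.73). *Dnajc3* (P58IPK), known as an inhibitor of PERK as well as a BiP partner, had 13.0, 13.2 and 13.0 FPKM in KO and 12.2, 11.6 and 12.2 FPKM in WT (log2 fold change 0.11, 95% confidence interval -0.03 to 0.25, limma adjusted p = 0.199). Its groups did not overlap, although the difference was under 10% of the mean.

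Of the 3 small partners of the chaperones 2 fell, against 12.4% of all genes tested. *Creld2*, which encodes an ER stress-inducible secretory pathway protein (chromosome 15, 88819646 to 88826683), had 37.3, 45.8 and 44.7 FPKM in KO replicates 1 to 3, against 80.4, 53.6 and 70.2 FPKM in WT replicates 1 to 3. It was 1.60-fold lower (-0.65 ± 0.16 SE as log2 fold change, adjusted p = 0.029 by limma), with the WT libraries spread more widely than the KO libraries. The call was lost when any library other than WT replicate 2 was left out (adjusted p between 0.0571 and 0.0917). *Manf*, which encodes a secreted neurotrophic factor that binds BiP (chromosome 9, 106838312 to 106891979), had 13.8, 13.3 and 12.2 FPKM in KO replicates 1 to 3, against 18.1, 17.6 and 17.9 FPKM in WT replicates 1 to 3. Its groups lay clearly apart, and it was 1.37-fold lower (-0.43 ± 0.07 SE as log2 fold change, adjusted p = 0.00651 by limma). The exons of *Manf* share 146 bases with *Dcaf1* and 166 with an antisense gene on the other strand, and 14 with *Rbm15b* on its own. *Sdf2l1*, a BiP cofactor that keeps clients soluble, had 26.9, 31.3 and 31.6 FPKM in KO and 34.9, 24.1 and 23.6 FPKM in WT and was not called (log2 fold change 0.13, 95% confidence interval -0.25 to 0.52, limma adjusted p = 0.577). In *Sdf2l1* the call turned on the replicate 1 libraries, since without them it was higher in KO (adjusted p = 0.00786).

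The large chaperones lay lower or level without being called. For *Hspa5* the KO values given above all lay below the WT values, but KO replicate 1 was closer to WT than to the other KO libraries (log2 fold change -0.30, 95% confidence interval -0.54 to -0.06, limma adjusted p = 0.0661). *Hspa5* was called as lower without KO replicate 1 (adjusted p = 0.0206), without both replicate 1 libraries (0.00762), in TPM (0.0285) and with quantile normalization (0.00654). *Hsp90b1* (GRP94), the Hsp90 of the ER, had 104, 89.8 and 91.5 FPKM in KO and 112, 108 and 109 FPKM in WT, also without overlap (log2 fold change -0.20, 95% confidence interval -0.40 to -0.01, limma adjusted p = 0.106). Leaving out KO replicate 1 gave a call for *Hsp90b1* as well (adjusted p = 0.0338). Its exons share 84 bases with *Gm15344* on its own strand and 415 with a pseudogene on the other. *Hyou1* (GRP170), the nucleotide exchange factor of BiP, had 21.5, 24.0 and 27.2 FPKM in KO and 33.1, 22.3 and 26.7 FPKM in WT and *Hspa13*, another Hsp70 family gene, had 7.58, 6.78 and 6.42 FPKM in KO and 6.11, 7.33 and 6.73 FPKM in WT (limma adjusted p = 0.49 and 0.794). Summed over these 4 genes the level was 496, 421 and 431 FPKM in KO replicates 1 to 3, against 536, 537 and 549 FPKM in WT replicates 1 to 3, and *Hspa5* made up most of each sum. The ratio of *Herpud1* to *Hspa5* FPKM was 0.24, 0.259 and 0.262 in KO replicates 1 to 3, against 0.0650, 0.0819 and 0.0767 in WT replicates 1 to 3. Both lectin chaperones overlapped between genotypes: *Calr* had 279.5, 256 and 257 FPKM in KO and 285, 259 and 286 FPKM in WT and *Canx* (calnexin) 87.2, 80.9 and 81.5 FPKM in KO and 79.7, 80.1 and 82.6 FPKM in WT, with confidence intervals for the log2 fold change of -0.26 to 0.13 for *Calr* and -0.11 to 0.20 for *Canx*.

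Of 8 thiol enzymes 3 fell and 0 rose, against 12.4% of all genes tested that fell, and each fell by less than 1.3-fold. *Pdia4* (ERp72) had 25.3, 27.5 and 26.8 FPKM in KO replicates 1 to 3, against 36.4, 31.3 and 33.4 FPKM in WT replicates 1 to 3 and was 1.27-fold lower (-0.33 ± 0.08 SE as log2 fold change, adjusted p = 0.0228 by limma). *Ero1lb*, the oxidase that recharges disulfide isomerases, had 3.95, 4.20 and 4.20 FPKM in KO and 5.37, 4.86 and 5.25 FPKM in WT and was 1.25-fold lower (-0.27 ± 0.07 SE as log2 fold change, adjusted p = 0.0301 by limma). *Erp44*, which retrieves client proteins from the early secretory pathway, had 20.2, 20.4 and 18.4 FPKM in KO and 22.5, 24.1 and 23.7 FPKM in WT and was 1.19-fold lower (-0.24 ± 0.07 SE as log2 fold change, adjusted p = 0.042 by limma). KO values lay below WT values in all 3. The calls were fragile: that of *Erp44* was lost when any library was left out (adjusted p between 0.0525 and 0.149), that of *Ero1lb* when any but WT replicate 2 was left out (between 0.0656 and 0.0947), and that of *Pdia4* without KO replicate 1 (0.0518), KO replicate 2 (0.0623), KO replicate 3 (0.0761) or WT replicate 3 (0.0703).

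The other 5 thiol enzymes were not called. *Txndc5* (ERp46) had 6.79, 7.86 and 8.66 FPKM in KO and 10.3, 9.57 and 8.71 FPKM in WT without overlap (log2 fold change -0.27, 95% confidence interval -0.52 to -0.02, limma adjusted p = 0.104); its exons share 311 bases with the antisense gene *Gm31834* and 224 with *Bmp6*, both on the other strand. *Pdia5*, a disulfide isomerase gene, had 2.91, 2.81 and 2.05 FPKM in KO and 1.85, 1.87 and 1.85 FPKM in WT, also without overlap and with KO above (log2 fold change 0.32, 95% confidence interval 0.05 to 0.59, limma adjusted p = 0.0772), resting on 311 reads in KO and 207 in WT. Without KO replicate 3, the lowest of the KO libraries, *Pdia5* was called as higher (adjusted p = 0.031). *Pdia3* (ERp57), which works with the lectin chaperones, had 126, 123 and 124 FPKM in KO and 136, 126 and 133 FPKM in WT, and *Pdia6* (P5) had 75.8, 64.8 and 70.6 FPKM in KO and 73.9, 72.3 and 77.4 FPKM in WT, with adjusted p of 0.408 and 0.481 (limma). The summed level of the 8 was 597, 604 and 606 FPKM in KO replicates 1 to 3, against 627, 588 and 609 FPKM in WT replicates 1 to 3, and these sums overlap.

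Genes of entry into the ER were not called. *Sec61b*, a subunit of the translocon, had 23.4, 17.4 and 18.5 FPKM in KO and 24.4, 25.3 and 22.9 FPKM in WT (log2 fold change -0.29, 95% confidence interval -0.57 to -0.01, limma adjusted p = 0.111). As in *Hspa5* and *Xbp1*, KO replicate 1 was the KO library nearest to WT, here among the WT values, and without it *Sec61b* was called as lower (adjusted p = 0.0164). *Ssr1*, of the translocon-associated complex, had 10.6, 10.6 and 10.4 FPKM in KO and 10.8, 11.4 and 10.4 FPKM in WT (log2 fold change -0.04, 95% confidence interval -0.19 to 0.11, limma adjusted p = 0.656). *Sec11c*, a catalytic subunit of signal peptidase, had 11.8, 16.6 and 14.4 FPKM in KO and 15.3, 12.1 and 12.5 FPKM in WT (log2 fold change 0.09, 95% confidence interval -0.25 to 0.43, limma adjusted p = 0.681).

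Other genes of the secretory pathway were counted in 6 lists of 180 genes in all, of which 169 were tested. In KO 41 of the 169 rose (24.3%, against 15.7% of all genes) and 13 fell (7.69%, against 12.4%), with a median log2 fold change of 0.12, against 0.03 over all genes. The 54 calls became 27 without KO replicate 2, 20 without KO replicate 3, 34 without WT replicate 2 and 31 without WT replicate 3. In TPM only 7 of the 169 rose and 8 fell, with a median of 0.05, against -0.04 for all genes in TPM. Over all 11689 genes TPM gave 542 higher and 1161 lower, so the larger share of rises in these lists was not seen in TPM. In the list of N-glycosylation and glucosidases 8 of 33 rose (24.2%) and 1 fell (3.03%). *Ddost*, of the oligosaccharyltransferase that attaches glycans, stood at 72.8 ± 1.71 FPKM in KO and 49.0 ± 4.41 FPKM in WT and the mannosyltransferase gene *Alg9* at 10.8 ± 0.315 FPKM in KO and 6.47 ± 0.270 FPKM in WT (SD, n = 3 each; limma adjusted p = 0.00511 and 0.00119). *Uggt1*, the sensor that sends misfolded glycoproteins back to calnexin, rose, at 7.54 ± 0.381 FPKM in KO and 5.13 ± 0.378 FPKM in WT (adjusted p = 0.00662), while *Dad1*, another subunit of the transferase, fell, at 13.3 ± 0.705 FPKM in KO and 17.1 ± 0.617 FPKM in WT (adjusted p = 0.0127).

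Of 40 other thiol oxidoreductases and folding enzymes 14 rose (35%, against 15.7% of all genes tested) and 6 fell (15%, against 12.4%). *Ero1l*, the paralogue of *Ero1lb* and also known as a hypoxia target, stood at 308 ± 41.1 FPKM in KO and 156 ± 8.87 FPKM in WT (adjusted p = 0.00256), so the called directions of this pair of oxidase genes are opposite. *Tmx3*, a membrane-bound disulfide isomerase, stood at 15.8 ± 0.508 FPKM in KO and 8.77 ± 0.0869 FPKM in WT (adjusted p = 4.74e-04). Among the falls *Txndc11* stood at 2.22 ± 0.156 FPKM in KO and 3.20 ± 0.0564 FPKM in WT (adjusted p = 0.0111). Of 31 other ERAD genes 5 rose (16.1%, close to the 15.7% of all genes tested) and 1 fell (3.23%, against 12.4%). Of 22 genes of the translocon and signal peptidase 5 rose (22.7%) and 0 fell. *Erlin1* and *Erlin2*, which form a membrane complex that sends IP3 receptors to ERAD, stood at 5.13 ± 0.304 FPKM in KO and 2.50 ± 0.171 FPKM in WT for *Erlin1* and 7.92 ± 0.0754 FPKM in KO and 5.41 ± 0.0704 FPKM in WT for *Erlin2* (adjusted p = 0.0011 and 0.00255), and *Herpud2*, the paralogue of *Herpud1*, at 13.4 ± 0.717 FPKM in KO and 9.26 ± 0.353 FPKM in WT (adjusted p = 0.00431). *Spcs1* and *Spcs3*, subunits of signal peptidase, stood at 27.9 ± 0.853 FPKM in KO and 19.8 ± 1.88 FPKM in WT for *Spcs1* and 32.7 ± 1.30 FPKM in KO and 26.1 ± 0.862 FPKM in WT for *Spcs3* (adjusted p = 0.00901 and 0.0142). Of 35 genes of COPII export and cargo receptors 8 rose (22.9%) and 3 fell (8.57%). *Mcfd2*, a cargo receptor subunit, stood at 61.6 ± 3.58 FPKM in KO and 32.3 ± 3.64 FPKM in WT (adjusted p = 0.00173). *Sec24d*, a coat subunit, stood at 5.62 ± 0.327 FPKM in KO and 7.62 ± 0.221 FPKM in WT (adjusted p = 0.00956).

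**Figure D5:**
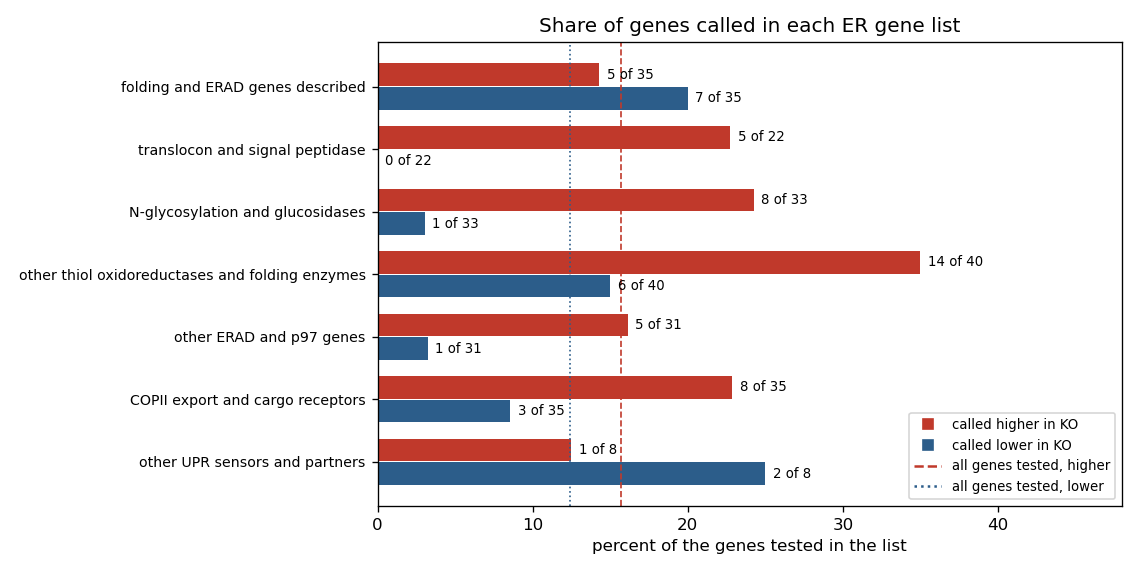
Percent of the tested genes of each list that were called higher (red) or lower (blue) in KO, with the shares over all genes tested as a dashed line (higher) and a dotted line (lower). The folding and ERAD genes described here had 5 rises and 7 falls, but 4 and 3 without KO replicate 2, 5 and 3 without KO replicate 3, 6 and 4 without WT replicate 1 and 4 and 3 without WT replicate 3, so the order of the 2 counts is not stable. The 6 wider lists together had 41 rises and 13 falls among 169 genes tested. In TPM they had 7 and 8, against 542 and 1161 of all 11689 genes. The lists were not tested against each other.

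Among 8 tested partners of the sensors 1 rose (12.5%) and 2 fell (25%), against 15.7% and 12.4% of all genes tested. *Eif2ak3*, which encodes the third sensor PERK, fell, at 1.11 ± 0.311 FPKM in KO and 3.39 ± 0.488 FPKM in WT (adjusted p = 0.00343), and so did *Rtcb*, the ligase that joins the *Xbp1* exons, at 11 ± 0.568 FPKM in KO and 14.4 ± 0.544 FPKM in WT (adjusted p = 0.0112). *Tmbim6*, known to restrain IRE1alpha, rose, at 167 ± 9.86 FPKM in KO and 119 ± 4.23 FPKM in WT (adjusted p = 0.00615). Side by side with these, 6 of 7 ATF4-CHOP genes were called higher (85.7%, against 15.7% of all genes tested). *Chac1* stood at 41.9 ± 1.57 FPKM in KO and 2.26 ± 0.0927 FPKM in WT (adjusted p = 6.42e-06). *Atf4* stood at 289 ± 21.9 FPKM in KO and 179 ± 10.7 FPKM in WT (adjusted p = 0.00347). *Ddit3*, the gene of CHOP, stood at 22.9 ± 5.24 FPKM in KO and 11.6 ± 2.36 FPKM in WT (adjusted p = 0.0228).

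Markers of the B lineage and of other cell types were counted as well. Besides the B cell markers, 5 of 11 tested plasma cell markers were called lower and 1 higher, and the 14 in that list summed to 137 to 152 FPKM in KO and 160.2 to 211 FPKM in WT. The rise was *Sdc1*, a surface proteoglycan gene also expressed outside plasma cells, at 82.4 ± 6.97 FPKM in KO and 56.6 ± 0.634 FPKM in WT (limma adjusted p = 0.00569), the larger share of the KO sum. *Mzb1*, an ER chaperone partner of B lineage cells, stood at 0.811 ± 0.0642 FPKM in KO and 23.8 ± 1.33 FPKM in WT. *Jchain*, which plasma cells make in quantity, stood at 0.268 ± 0.0784 FPKM in KO and 0.871 ± 0.239 FPKM in WT, and *Tnfrsf17*, a defining plasma cell gene, was at 0 in all 6 libraries. Dendritic cell markers summed to 93.4 to 107 FPKM in KO and 196 to 279 FPKM in WT, with 7 of 10 tested called lower, and neutrophil markers to 679 to 762 FPKM in KO and 917 to 1222 FPKM in WT, with 3 of 8. T and NK cell markers summed to 2.92 to 4.07 FPKM in KO and 10.7 to 13.3 FPKM in WT (4 of 4 lower), mesothelial and fibroblast markers to 7.16 to 9.09 FPKM in KO and 15.9 to 18.7 FPKM in WT (4 of 7) and mast cell markers to 0.993 to 1.39 FPKM in KO and 6.51 to 8.08 FPKM in WT (4 of 4). In every one of these lists each KO sum lay below each WT sum. Over all genes tested 12.4% were called lower and 15.7% higher. These cells carry ER folding genes too, and their part in the falls of *Dnajb9*, *Syvn1*, *Manf*, *Creld2* and the thiol enzymes was not tested. Macrophage markers summed higher in KO, with 6 of 13 called higher and 2 lower. The part of cell composition in the rises was not tested either.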

How the data were processed

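RNA-seq covered 3 KO and 3 WT macrophage libraries. Per the labels, total RNA was taken with Trizol and libraries were made with a TruSeq kit. The authors deposited 1 table of FPKM per gene, and the submitters' processing notes name GRCm38 and mm10. The sources used here give no aligner, counter or strand setting. After multiplying FPKM by gene length, 100% of values were within 0.05 of a whole number of steps, and the steps were read as reads. FPKM sums differed between libraries, from 334570 to 412048 in KO and from 311409 to 365689 in WT. The highest was KO replicate 1.

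Tests used limma 3.58.1 in R 4.3.3 on log2(FPKM + 1) with genotype alone, eBayes with an intensity trend and a mean of at least 0.5 FPKM over the 6 libraries, since FPKM are not counts. This scale understates the differences of low genes. Folds are ratios of mean FPKM. The steps were tested on simulated reads with the same extra scatter for every gene and no library standing apart. That test therefore does not cover data in which libraries of a group stand apart, as here. Members were chosen by name, not by their values. That choice, the gene lists and the tests were made with earlier results of these data known. All members are accounted for; of other lists the text names genes among the 3 called ones with the smallest p per direction, the targeted gene, and B lineage and ATF4-CHOP genes. Replicate pairs all differed by more than sampling noise, and 6 libraries were used. The alternatives tried were another pseudocount, 2 other filters, TPM with the same genes, quantile normalization, robust eBayes, a replicate block and leaving out libraries. Each member's coordinates are those of the deposited table, and 35 of 36 equal those of GENCODE M21. Shared exon bases come from that annotation. Precision is limited by 3 libraries per group, and intervals cover the spread of these libraries only.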

Additional observations from a re-analysis of the deposited data

How the results depend on the processing

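Of 490 comparisons of a tested member with 1 of 14 alternatives, 424 gave the same call, 45 lost it, 21 gained it and 0 reversed a called direction. *Herpud1*, *Ern1* and *Dnajb9* were called under all 14. Members higher in KO numbered 5; the count was 2 in TPM, 3 with the replicate block and 8 without both replicate 1 libraries. Members lower in KO numbered 7; the count was 4 with no filter, 4 in TPM, 13 with quantile normalization and 1 with the replicate block. The median log2 fold change of the members was -0.04, and -0.13 in TPM and -0.15 with quantile normalization. Over all genes tested the median was 0.03, and -0.04 in TPM and 0.05 with quantile normalization. Genes called over the whole table numbered 3278, with 1833 higher and 1445 lower; TPM gave 1703, with 542 higher, the replicate block gave 1083, with 479 higher and 604 lower, and a mean of at least 2 FPKM gave 876 lower. Calls in the wider ER lists numbered 54, and 34 with no filter, 15 in TPM and 11 with the replicate block. In each of these the cause was not tested.

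Leaving out 1 library gave 4 to 6 members higher, 3 to 7 lower, a median of -0.08 to -0.02, 1763 to 3018 genes called, 912 to 1681 higher, 851 to 1337 lower, and 20 to 51 calls in the wider lists. Members lower numbered 3 without KO replicate 2, KO replicate 3 or WT replicate 3 and 4 without WT replicate 1. Genes called numbered 1763 without KO replicate 2, 1766 without KO replicate 3, 2156 without WT replicate 2 and 1941 without WT replicate 3. The labels do not say whether same-numbered libraries share a day, dish or batch. Deviations of same-numbered libraries from their group means correlated at -0.50, -0.19 and -0.16. With 3 libraries per group these correlations cannot decide whether the numbers mark a pairing, so the replicate block stands as an alternative.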
